A study of Mus musculus with 3 samples.

Results

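Hcn2, Hcn3 and Hcn4, which encode pore subunits of hyperpolarization-activated cation channels, and Pex5l, which encodes their auxiliary subunit TRIP8b, were described in cultured mouse cortical neurons. The 4 genes were chosen by their GENCODE symbols, out of 18109 protein-coding genes with a coding row in the deposited table, and all 4 were found. Other genes of the family were not analysed here. Poly-A selected RNA came from dissociated cortex of Swiss-Webster mouse embryos at embryonic day 16, wild type in genotype and with no treatment, grown on poly-D-lysine in neurobasal medium with B27. There were 3 libraries of this 1 group, so every comparison is between genes of the same libraries. Swiss-Webster is an outbred stock, and the labels do not state whether each library is a culture of its own. The spread between them may therefore be technical. Levels are given as TPM, a share of reads scaled by transcript length, on the row of each gene's longest protein-coding transcript. Every transcript row counts towards the 1000000 TPM of a library, and rows of a gene share reads. Over all protein-coding genes the rows used here summed to a mean of 220734 TPM. A level in TPM is therefore lower here than on a scale with 1 row per gene, and cutoffs in TPM are stricter.

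HCN channels open when the membrane becomes more negative and pass a mixed sodium and potassium current, called Ih. In pacemaker cells this current drives rhythmic firing, and in cortical pyramidal neurons it sets the resting potential and dampens the summation of synaptic inputs in dendrites. Cyclic AMP binds a cytoplasmic domain of the channel and eases its opening, more strongly in HCN2 and HCN4 than in HCN3. TRIP8b binds that domain and the channel's C-terminal tail, weakens the effect of cyclic AMP and controls how much channel reaches the membrane. HCN2 is widespread in the brain, HCN4 is best known from the sinoatrial node and thalamus, and HCN3 is generally scarce.

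The channel genes are paralogs that must be told apart before their levels can be compared. The coding stretch around the selectivity filter, a strongly conserved part of the pore, is printed for each to show how far reads from such a stretch can tell the genes apart, with the codons for glycine, tyrosine and glycine in capitals (GENCODE M21 transcripts, mm10, 5′ to 3′ on the gene's strand).
Hcn2, chr10:79728935-79728994, plus strand: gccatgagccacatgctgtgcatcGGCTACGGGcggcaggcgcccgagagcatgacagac
Hcn3, chr3:89150979-89151038, minus strand: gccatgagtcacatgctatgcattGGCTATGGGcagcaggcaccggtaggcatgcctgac
Hcn4, chr9:58855567-58855626, plus strand: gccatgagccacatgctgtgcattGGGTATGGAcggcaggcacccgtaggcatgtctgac

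Over these 60 bases Hcn2 and Hcn3 differed at 12 positions, Hcn2 and Hcn4 at 10, and Hcn3 and Hcn4 at 7. The longest run that any pair shared without a difference was 23 bases, between Hcn2 and Hcn4. Over the whole aligned coding sequence, identity was 72.0% for Hcn2 and Hcn3, 76.3% for Hcn2 and Hcn4 and 75.8% for Hcn3 and Hcn4. No word of 50 bases of a channel transcript occurred in another channel gene. All words of Hcn2 and Hcn4 were unique among annotated transcripts of other genes, against 83.3% of those of Hcn3 and 95.4% of those of Pex5l. The shared words of Hcn3 lie in 711 non-coding exonic bases at its 3′ end that overlap Pklr, a protein-coding gene on the opposite strand. No level of Pklr could be read from the deposited values, and its part in the Hcn3 reads was not tested. The shared words of Pex5l overlap the antisense gene Gm37459, which stood at 0.0157 ± 0.0146 TPM (SD, n = 3) on its highest row. The library kit keeps strand, but the strand setting of the counting is not given in the sources used here.

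Pex5l was the most abundant of the 4 genes, followed by Hcn2, Hcn3 and Hcn4. Hcn2, a strongly cyclic AMP sensitive subunit (mm10 chromosome 10, 79716634 to 79736108, plus strand; 8 exons), stood at 10.0, 10.4 and 8.57 TPM in libraries 1, 2 and 3. Its mean was 9.68 ± 0.979 TPM (SD, n = 3), and library 3 was the lowest. Hcn3, the subunit with little response to cyclic AMP (chromosome 3, 89146074 to 89160196, minus strand; 8 exons), stood at 6.98, 6.27 and 5.05 TPM, a mean of 6.10 ± 0.977 TPM. Library 3 was again the lowest and library 1 the highest.

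Hcn4, the slowest subunit and the main one of the sinoatrial node (chromosome 9, 58823512 to 58860955, plus strand; 8 exons), stood at 4.02, 4.93 and 4.24 TPM, a mean of 4.40 ± 0.474 TPM. Here library 2 was the highest, and libraries 1 and 3 lay close together. Pex5l (chromosome 3, 32949408 to 33083060, minus strand for the row used; 15 exons) stood at 15.8, 18.4 and 15.8 TPM, a mean of 16.6 ± 1.49 TPM, also highest in library 2. The values of neighbouring genes in this order did not overlap: the lowest Pex5l library lay above the highest of Hcn2, the lowest of Hcn2 above the highest of Hcn3, and the lowest of Hcn3, 5.05 TPM, just above the highest of Hcn4, 4.93 TPM.

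**Figure D1:**
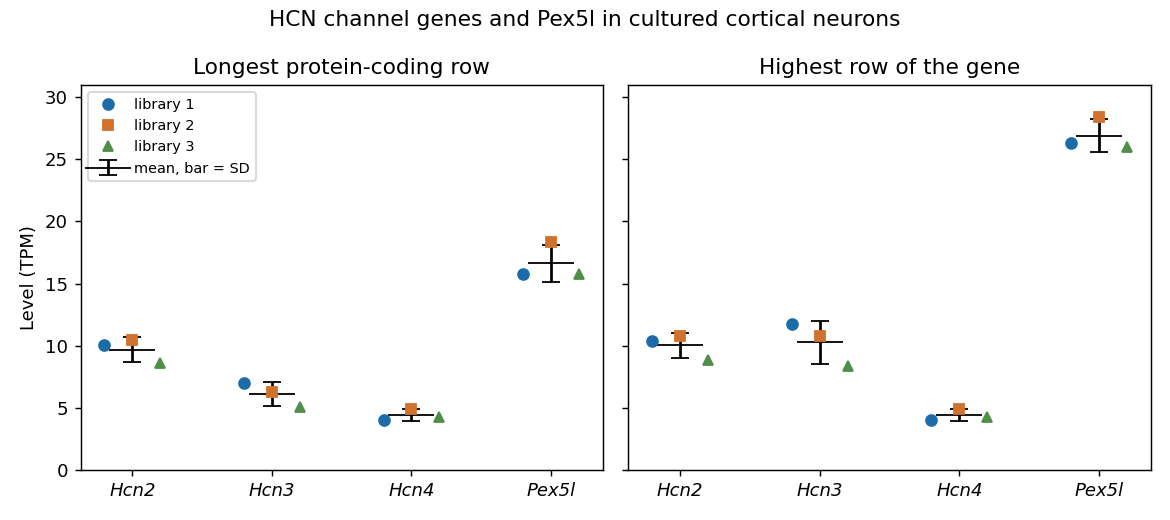
Level in TPM (y axis) of Hcn2, Hcn3, Hcn4 and Pex5l in each of the 3 libraries (symbols), with the mean and SD (black), on the longest protein-coding row (left) and on the highest row of each gene (right). On the left the 4 genes do not overlap; on the right Hcn3 moves from 6.10 to 10.3 TPM and overlaps Hcn2.

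Differences between genes were taken within each library on the log2(TPM + 1) scale, for the 6 pairs of the 4 genes. Pex5l exceeded Hcn2 by 0.72 ± 0.11, Hcn3 by 1.32 ± 0.22 and Hcn4 by 1.71 ± 0.03 (SD, n = 3). Hcn2 exceeded Hcn3 by 0.59 ± 0.11 and Hcn4 by 0.98 ± 0.14. Hcn3 exceeded Hcn4 by 0.39 ± 0.25, with library values of 0.67, 0.29 and 0.21, the smallest and most variable of the differences. Each difference was above 0 in 3 of 3 libraries. For every pair p was 0.25 in an exact permutation test that flips signs over libraries (two-sided), also after Benjamini-Hochberg adjustment over the 6 pairs, and 3 libraries cannot give a smaller p. The test therefore cannot pass a threshold of 0.05, whatever the size of a difference. As a plain ratio of TPM, Hcn2 stood 1.44 to 1.70 times above Hcn3, and Hcn3 1.19 to 1.74 times above Hcn4.

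Of the summed TPM of the 3 channel genes, Hcn2 held 47.7, 48.2 and 48.0% in libraries 1, 2 and 3, a mean of 48.0% ± 0.239. Hcn3 held 33.2, 29.0 and 28.3% and Hcn4 19.1, 22.8 and 23.7%. The share of Hcn2 was thus nearly the same in all libraries, while Hcn3 took more and Hcn4 less in library 1 than in the other libraries. The sum itself was 21.04, 21.6 and 17.9 TPM. Pex5l stood at 0.750, 0.849 and 0.883 times that sum, a mean of 0.827 ± 0.0691. Both results rest on the rows chosen. Pex5l-205, another coding row, stood at 21.1, 24.6 and 21.2 TPM, above the sum in each library. On the highest rows Hcn2 stood at 10.0 and Hcn3 at 10.3 TPM, so Hcn2 did not hold the largest share there. The shares are of RNA for these genes alone and say nothing of the makeup of channel tetramers.

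Reads could be recovered from the values, because TPM multiplied by transcript length was a whole multiple of 1 number per library. Hcn2 rested on 1645, 1440 and 1251 reads, Hcn3 on 1432, 1085 and 923, Hcn4 on 782, 809 and 736, and Pex5l on 3402, 3338 and 3030. At the mean number of reads, counting error alone gives a coefficient of variation (CV, the SD as a share of the mean) of 2.63% for Hcn2, 2.95% for Hcn3, 3.59% for Hcn4 and 1.75% for Pex5l. The observed CVs of TPM were 10.1, 16.02, 10.8 and 8.96%, all larger than counting error. The median CV of detected protein-coding genes was 7.88%, and 89.6% of these had a lower CV than Hcn3. For Hcn2, Hcn4 and Pex5l the share was 66.8, 70.9 and 58.7%. Reads without molecular identifiers are not independent molecules, so these figures cover counting error only.

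The row chosen for each gene shapes its level, because the transcript rows of a gene share reads. Hcn2 has 2 rows in the table, both protein-coding with the same coding length of 2589 bases, and they stood at 10.0 and 9.68 TPM. They differ by a 106-base stretch near the 3′ end that Hcn2-202 keeps and Hcn2-201 splices out. That stretch brought 1, 0 and 0 further reads in libraries 1, 2 and 3, where a count of 0 allows up to 3 further reads. Nearly all counted reads of the gene were thus counted in both rows. Reads that reach from the stretch into its neighbours may already be counted in Hcn2-201. The difference is therefore no measure of how often the stretch is kept.

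Hcn3 has 1 protein-coding row, Hcn3-201, of 4002 bases with 2337 coding. Its other 3 rows are non-coding models. Hcn3-202, a model of 533 bases with a retained intron that covers exons of the pore region, was the highest at 11.7, 10.8 and 8.34 TPM, a mean of 10.3 ± 1.74 TPM. Hcn3-203, another such model, stood at 8.002 ± 1.55 TPM. The processed transcript Hcn3-204, whose exonic bases all lie within those of the coding row near its 5′ end, stood at 6.04 ± 0.723 TPM, close to the coding row. Reads per kilobase averaged 482 on Hcn3-202, 376 on Hcn3-203, 283 on Hcn3-204 and 287 on the coding row. The retained bases occur in both of these models together with coding exons, so their reads could not be separated. With Hcn3-202 and Hcn2-201, the highest rows, in place of the coding rows, Hcn2 minus Hcn3 was -0.03 ± 0.12 on the log2 scale (exact sign-flip p = 1, n = 3), and the libraries of both genes overlapped.

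Hcn4 has a single row. The deposited model spans 3798 exonic bases, of which 3603 are coding, while the same transcript in GENCODE M21 is 2320 bases longer at its ends. The level of Hcn4 is therefore a level over nearly pure coding sequence, and reads in the longer ends were not analysed here. The coding part is 2589 of 3195 bases for Hcn2, 2337 of 4002 for Hcn3 and 1950 of 4206 for Pex5l. Whether this moves the order of Hcn3 and Hcn4 was not tested. The bases G and C made up 65.4% of the M21 transcript of Hcn2, 58.0% of those of Hcn3 and Hcn4 and 47.2% of that of Pex5l. The part of base composition in the order of the 4 genes was not tested.

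**Figure D2:**
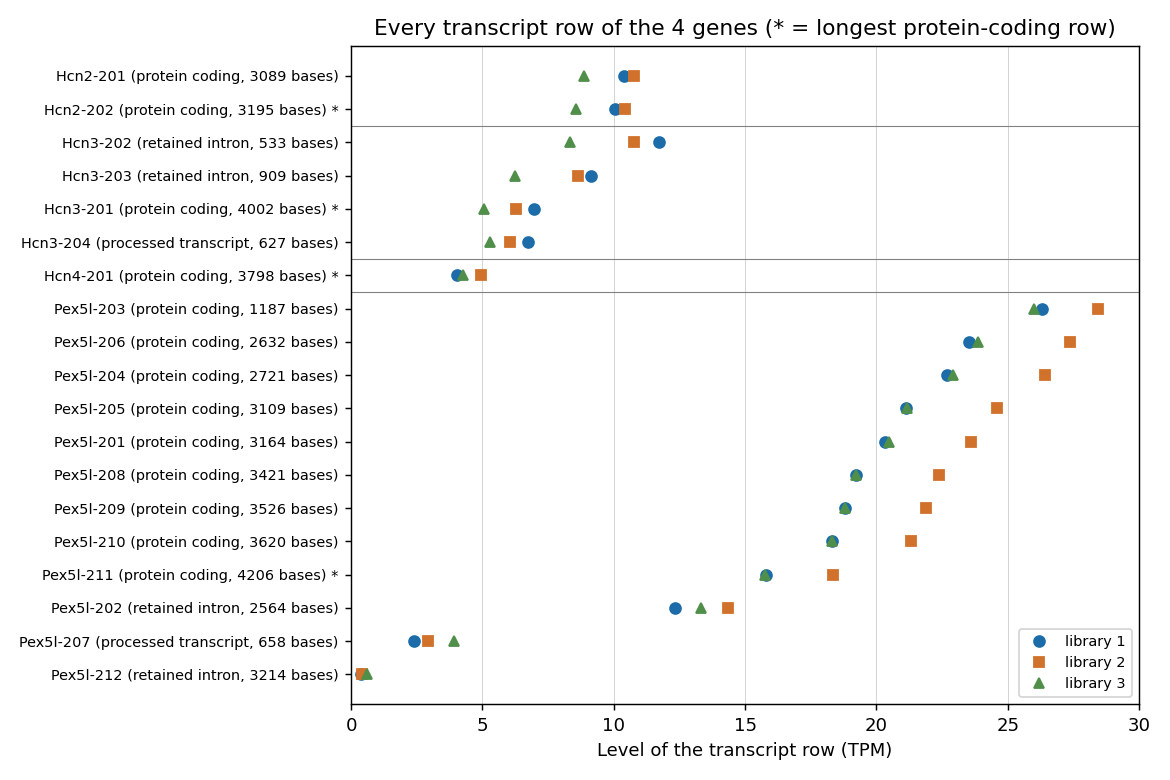
Level in TPM (x axis) of each transcript row of the 4 genes (y axis, with type and exonic length) in the 3 libraries (symbols); an asterisk marks the longest protein-coding row. Pex5l-211 is the lowest of the 9 coding rows of Pex5l at 16.6 TPM and Pex5l-203 the highest at 26.9 TPM, and the Hcn3 rows with a retained intron lie above its coding row.

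Pex5l has 12 rows, 9 of them protein-coding, which differ in their first exons, in internal exons and at their 3′ ends. TRIP8b is known for alternative starts and spliced N-terminal exons that change how it steers channels to or from the membrane. The coding rows ranged from 16.6 ± 1.49 TPM for Pex5l-211, the longest, to 26.9 ± 1.33 TPM for Pex5l-203, a model of 1187 bases limited to the 3′ part of the gene. The 8 coding rows other than Pex5l-203 held 3165 to 3402 reads in library 1, 3110 to 3338 in library 2 and 2851 to 3030 in library 3. Their lengths ran from 2632 to 4206 bases. Reads in library 1 thus differed by 1.07 times between the extremes and lengths by 1.60 times, and the level in TPM followed length, with 24.9 ± 2.14 TPM on the shortest of them, Pex5l-206, and 16.6 TPM on the longest.

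The starts of Pex5l could be compared through rows contained in one another. A near start has its first exon at chromosome 3, 33082816 to 33083060, in Pex5l-208, and a far start, 60.02 kb upstream, has its first exon at 33142849 to 33143082 in Pex5l-206. The 992 exonic bases from 33082069 to 33083060, which belong to the near start and are all part of Pex5l-211, brought 1, 1 and 0 reads beyond those of rows that lack them. In library 3 the count of 0 allows up to 3 reads. Pex5l-207, a processed transcript of 658 bases with the far first exon and 1 more exon, held 81, 83 and 118 reads in all. Pex5l-212, an unspliced model of 3214 bases over the far start, held 60, 56 and 91 reads in all. Library 3 was the highest on both rows. Reads per kilobase averaged 143 on Pex5l-207 and 21.5 on Pex5l-212. These are totals of whole rows and not reads beyond other rows, so they cannot be set against the added reads of the near start. Pex5l-206, with the far first exon, held 8, 6 and 18 reads more than Pex5l-204, which has the near first exon and the same 3′ end. These rows also differ inside, with 13 exons and 1701 coding bases in Pex5l-206 and 15 exons and 1773 coding bases in Pex5l-204, so the difference is not that of the first exons alone. A read that is spliced from either first exon into a shared exon could count for both rows, depending on the counting mode, which is not given in the sources used here. This limit holds for such spliced reads only. The 992 bases themselves added at most 1 read per library, while Pex5l-205, which lacks them, averaged 1038 reads per kilobase. They add length but almost no reads to Pex5l-211, the row used for the Pex5l level. That row stood at 16.6 TPM and Pex5l-205, which also lacks the coding exon described below, at 22.3 TPM. How often spliced transcripts begin at the near start is not measured by these numbers.

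A coding exon of 105 bases is present in Pex5l-209, Pex5l-210 and Pex5l-211 and absent from the other coding rows, and is the part of the protein-coding sequence that separates Pex5l-209 from Pex5l-208. It is printed because the reads added by it can be counted, with the exon in capitals and 12 bases of the neighbouring exons in lower case on either side (GENCODE M21 transcript, mm10, minus strand, read 5′ to 3′).
Pex5l exon, chr3:33024696-33024800: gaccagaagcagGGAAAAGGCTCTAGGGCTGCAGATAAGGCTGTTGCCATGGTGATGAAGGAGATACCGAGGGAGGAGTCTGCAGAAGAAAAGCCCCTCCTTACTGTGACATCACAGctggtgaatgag

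This exon brought 31, 29 and 26 reads in libraries 1, 2 and 3, which is 295, 276 and 248 per kilobase. Pex5l-208, the row without it, held 985, 967 and 878 reads per kilobase. The added reads were few but present in every library, and they made up 0.88% of the reads of Pex5l-209. Reads that reach from this exon into its neighbours may already be counted in Pex5l-208, so the difference is no measure of how often the exon is spliced in. Of its bases, 24 also overlap an exon of a gene on the opposite strand.

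All 4 genes had a mean of at least 1 TPM, which 61.5% of protein-coding genes reached on the same kind of row. At 10 TPM or more stood 1 of the 4, Pex5l, against 26.4% of protein-coding genes. Pex5l lay above 83.1% of protein-coding genes, Hcn2 above 73.0%, Hcn3 above 63.3% and Hcn4 above 57.1%. By library the share was 82.4, 84.3 and 82.4% for Pex5l, 73.8, 74.1 and 70.8% for Hcn2, 66.3, 63.9 and 59.96% for Hcn3, and 55.6, 59.2 and 56.5% for Hcn4. The median protein-coding gene, silent genes included, stood at 2.84 TPM, below all 4. Among genes at 1 TPM or more, Pex5l lay above 72.5%, Hcn2 above 56.2%, Hcn3 above 40.4% and Hcn4 above 30.3%, so that Hcn3 and Hcn4 were then below the median gene.

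**Figure D3:**
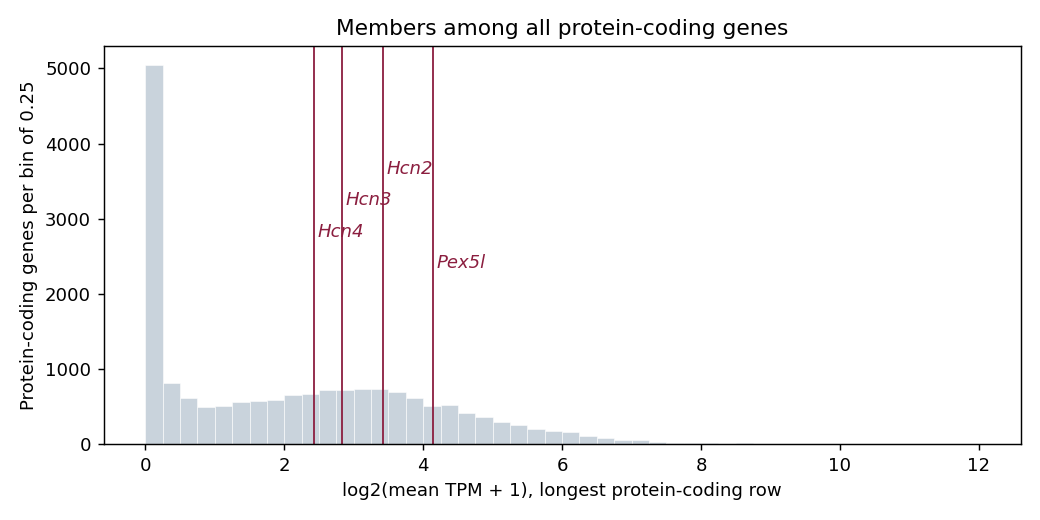
Number of protein-coding genes (y axis) per bin of 0.25 of log2(mean TPM + 1) (x axis) on the longest protein-coding row, with the 4 genes as lines. Hcn4, Hcn3, Hcn2 and Pex5l stand in this order in the broad peak right of the silent genes, above 57.1, 63.3, 73.0 and 83.1% of genes.

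Of 135 pore-forming cation channel genes in the table, 78 reached 1 TPM, against 61.5% of all protein-coding genes. Among the 135, Hcn2 took place 25, Hcn3 place 39 and Hcn4 place 53 from the top. The genes nearest to each in level were found by the Euclidean distance of log2(TPM + 1) over the 3 libraries, which measures likeness of level and not of regulation. Nearest to Hcn2 were Kcnd2, an A-type potassium channel, at 10.3 ± 0.861 TPM and Cacna1a, the P/Q-type calcium channel, at 10.5 ± 0.957 TPM (distances 0.20 and 0.20). Nearest to Hcn3 were Kcnt1, a sodium-activated potassium channel, at 5.96 ± 0.462 TPM and Kcnn1, a calcium-activated potassium channel, at 5.69 ± 0.629 TPM (0.16 and 0.20). Nearest to Hcn4 were Kcna4, another A-type potassium channel, at 4.51 ± 0.237 TPM and Cacna1d, an L-type calcium channel, at 4.02 ± 0.163 TPM (0.14 and 0.21). Pex5l, which forms no pore, lay nearest to Kcnj3, a subunit of G protein-gated potassium channels, at 17.6 ± 2.69 TPM and to Kcnk2, a leak channel, at 15.9 ± 1.53 TPM (0.17 and 0.20). All of these overlapped the gene they are set beside over the libraries.

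Of 14 genes of other channels that share the cytoplasmic cyclic nucleotide binding fold with HCN, 5 reached 1 TPM, against 61.5% of protein-coding genes. All 5 are of the Kcnh family of voltage-gated potassium channels. The list median was 0.30 on the log2(TPM + 1) scale against 1.94 over all protein-coding genes and 3.12 over the 4 genes. Kcnh3, the highest, stood at 15.5 ± 1.99 TPM, above the HCN genes described here in each library. Kcnh7 stood at 5.05 ± 0.929, Kcnh1 at 3.85 ± 0.663 and Kcnh2, the mouse counterpart of hERG, at 2.67 ± 0.367 TPM. The 3 lowest were cyclic nucleotide-gated channels of sensory cells. Cnga2 of olfactory neurons stood at 0.0115 ± 0.00353 TPM. Cngb3 of cones was listed at 0, 0.00983 and 0.00930 TPM, and Cnga1 of rods at 0.00712 TPM in library 1 and 0 in the other libraries.

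Of 16 genes of proteins known to bind HCN channels or to act on them, 11 reached 1 TPM and 6 reached 10 TPM. Of all protein-coding genes, 61.5% reached 1 TPM and 26.4% reached 10 TPM. The list median was 3.29, against 1.94 over all protein-coding genes. Vapa, which tethers the endoplasmic reticulum to other membranes and binds HCN2, stood at 85.9 ± 3.21 TPM. Ptpra, a receptor phosphatase that acts on HCN channels, stood at 57.1 ± 2.86 TPM, and the adaptor gene Apba2 at 39.0 ± 0.360 TPM. Kctd3, whose product binds HCN3, stood at 28.9 ± 0.423 TPM. The lowest were Kcne2, a small accessory subunit of heart channels, at 0.0646 ± 0.0282 TPM, Mrvi1, whose product binds HCN4, at 0.00825 ± 0.00553 TPM, and Cav3, the caveolin of muscle, at 0.0168 TPM in library 1 and 0 in the other libraries.

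Pex5l takes its name from Pex5, the receptor that carries proteins into peroxisomes, with which it shares its protein-binding repeats. Pex5 stood at 16.7, 17.1 and 15.3 TPM, a mean of 16.4 ± 0.976 TPM, and Pex5l at 0.944, 1.07 and 1.03 times that level in libraries 1, 2 and 3. The levels of both genes overlapped on these rows, but on the highest row of each gene Pex5l stood at 26.9 and Pex5 at 19.4 TPM. All 10 genes of the peroxisomal import list reached 1 TPM and 4 reached 10 TPM, against 61.5 and 26.4% of all protein-coding genes. The list median was 2.96. Besides Pex5, the highest were Pex2, of the import complex's ubiquitin ligase, at 13.1 ± 0.569, Pex7, the second import receptor, at 11.9 ± 0.280, and Pex14, of the docking complex, at 10.4 ± 0.0873 TPM. Pex26, which anchors the receptor recycling complex in the membrane, was among the lowest at 3.10 ± 0.160 TPM.

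**Figure D4:**
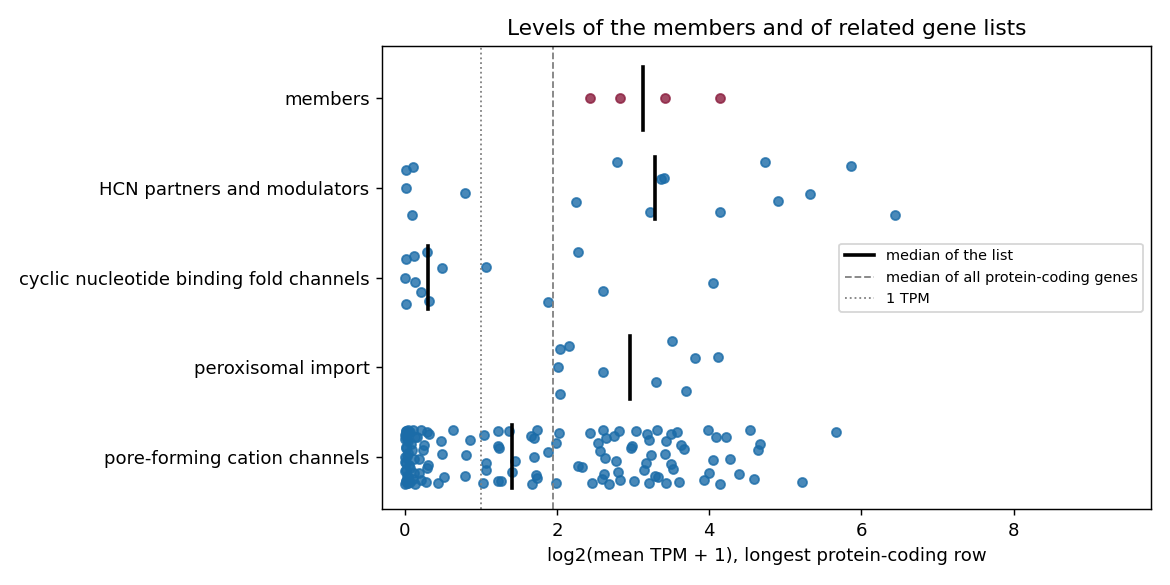
log2(mean TPM + 1) (x axis) of each gene of the lists named on the y axis; points are genes, black bars list medians, the dashed line the median of all protein-coding genes and the dotted line 1 TPM. The list medians are 3.12 for the 4 genes, 3.29 for HCN partners, 0.30 for channels of the cyclic nucleotide binding fold, 2.96 for peroxisomal import and 1.41 for pore-forming cation channels, which include the HCN, Kcnh and Cng genes.

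The cultures held neurons and other cells, and levels in bulk RNA do not tell fewer cells of a type from less RNA per cell. All 8 pan-neuronal markers stood above 10 TPM, from Rbfox3 at 22.6 ± 0.0276 to Stmn2 at 687 ± 55.6 TPM. The summed pan-neuronal level was 2587, 2662 and 2366 TPM in libraries 1, 2 and 3. Library 3, where Hcn2 and Hcn3 were lowest, had the lowest neuronal sum. It also had the lowest sum of 7 interneuron markers, at 274, 288 and 186 TPM (6 of 7 at 1 TPM or more, from Pvalb at 0.260 ± 0.150 to Sst at 106 ± 25.9 TPM). The sum of 7 astrocyte markers, all above 10 TPM, was 421, 450 and 514 TPM and highest in library 3, with Aldh1l1 the lowest at 10.8 ± 1.08 and Slc1a3 the highest at 184 ± 19.1 TPM. The sum of 6 glutamatergic markers was 204, 198 and 198 TPM, from Bcl11b at 4.32 ± 0.896 to Slc17a7 at 90.0 ± 4.47 TPM. Single markers did not all move with their sum. Syp was lowest in library 1 and Rbfox3 in library 2, the other pan-neuronal markers in library 3. Vip was lowest in library 1, the other interneuron markers in library 3. Slc1a2 and Aldh1l1 were highest in library 2, the other astrocyte markers in library 3. The part of these shifts in the values of Hcn2 and Hcn3 was not tested.

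Pex5l and Hcn2 are also known from cells of the oligodendrocyte lineage. The sum of 5 precursor markers, all at 1 TPM or more, was 65.5, 48.0 and 82.4 TPM. It was lowest in library 2, where Pex5l and also the pan-neuronal and interneuron sums were highest. Of the precursor markers Cspg4 was the lowest at 1.49 ± 0.517 and Olig1 the highest at 34.4 ± 2.91 TPM. Of 7 markers of myelinating oligodendrocytes 3 reached 1 TPM and the sum was 8.18, 8.17 and 8.07 TPM, with Cnp at 5.68 ± 0.0894 and Mobp at 0.00594, 0.0141 and 0 TPM. Their part in the Pex5l level was not tested. Hcn4 is known to be strong in thalamic neurons and heart cells. The 5 thalamic markers summed to 7.79, 10.8 and 8.74 TPM, most of it Slc17a6, which cortical cultures also express, at 6.28 ± 1.23 TPM. Lhx9 was the lowest at 0.0677 ± 0.0254 TPM. Library 2, where Hcn4 was highest, had the highest thalamic sum, as it had for the pan-neuronal and interneuron markers. Among single thalamic markers Gbx2 was lowest in library 2 and Lhx9 highest in library 3, while the others were highest in library 2. The 5 cardiac markers summed to 0.421, 0.383 and 0.436 TPM, from Tbx18 at 0.0102 ± 0.00926 to Myh6 at 0.178 ± 0.0122 TPM. The part of either cell type in the Hcn4 level was not tested. Microglial markers (1 of 5 at 1 TPM or more, Aif1 at 1.03 ± 0.425 TPM, Tmem119 listed at 0) and endothelial and mural markers (1 of 5, Pdgfrb at 1.08 ± 0.311 TPM, Cldn5 listed at 0) summed to at most 1.75 and 2.22 TPM in any library.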

How the data were processed

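The deposited table holds TPM of every transcript row in each library, as the authors calculated them (per the file headers), with a sum of 1000000 per library. Trimmomatic, TopHat, Bowtie, HTSeq and mm10 are named, without versions or order, per the submitters' processing notes; the table's name gives the GENCODE annotation. Counting mode and strand setting are not stated in those notes. Of 84660 rows, 1643 did not match GENCODE M21 (same build) and 30 lay elsewhere, which left 82987.

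Gene symbols are those of M21. The gene value is the row of the longest protein-coding transcript, rows were never summed, and genes count as detected at 1 TPM. The depth was recovered from the values: TPM times length was whole within 0.01 in 99.9% of 74454 rows with unchanged ends. Counting each gene by its fullest row, the libraries held 26.8, 23.7 and 23.3 M reads, and 1 TPM on 2 kb stood for 103, 86.5 and 91.4 reads. For Hcn4 the length was that of M21 within the deposited ends. Reads simulated for 74454 rows were recovered in 100% of rows. The simulation made and undid the values with the same lengths, so it checks the arithmetic only. It does not cover wrong lengths or the Hcn4 model. Calculations used Python 3.11.15, pandas 2.3.3, numpy 2.4.6 and Biopython 1.88.

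The genes, lists and tests were chosen with earlier results of these data known. Named genes are the 4 highest and 3 lowest of the lists of HCN partners, cyclic nucleotide binding fold channels and peroxisomal import, the 2 pore-forming cation channel genes nearest each member, and the highest and lowest marker of each cell type. Some genes of the peroxisomal import list that this rule names are not reported here. Alternatives were leaving out each library, the highest row, rescaling to nuclear protein-coding genes, pseudocounts of 0.1 and 0.5, detection at 0.5 and 5 TPM, the median of libraries, ranks among detected genes, and, chosen after seeing the data, the row with the longest coding sequence.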

Additional observations from a re-analysis of the deposited data

How the results depend on the processing

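The order Pex5l, Hcn2, Hcn3, Hcn4 held in each alternative except the highest row, where Hcn2 minus Hcn3 turned to -0.026 on the log2 scale. Of 48 alternative values for differences between genes, 47 kept their direction, and none passed the threshold, which 3 libraries do not allow. Without 1 library, Hcn2 minus Hcn3 ran from 0.56 to 0.66 and Hcn3 minus Hcn4 from 0.25 to 0.48. On the highest row Hcn3 stood at 10.3 and Pex5l at 26.9 TPM, and on the row with the longest coding sequence Pex5l stood at 19.8 TPM. Rescaled to nuclear protein-coding genes, Hcn2, Hcn3, Hcn4 and Pex5l stood at 46.1, 29.1, 20.96 and 79.3 TPM, since that scaling multiplies all genes by 4.70 to 4.87. On the highest row Hcn2, Hcn3, Hcn4 and Pex5l lay above 69.1, 69.6, 53.9 and 86.7% of protein-coding genes, and Pex5l above 85.3% on the longest coding sequence. Among genes at 1 TPM or more they lay above 56.2, 40.4, 30.3 and 72.5%. With detection at 5 TPM, 7325 protein-coding genes, 49 pore-forming cation channels, 6 peroxisomal import genes and 2 channels of the cyclic nucleotide binding fold were detected, against 11142, 78, 10 and 5 at 1 TPM. Rescaling raised the last of these to 8. No paired analysis was possible because there is 1 group, so replicate numbers pair no samples across groups; differences between genes were taken within libraries. The 4 genes rest on 736 reads or more in each library. The near-start stretch and the 105-base exon of Pex5l brought only 0 to 31 reads beyond rows that lack them.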
